A study of Homo sapiens with 9 samples.

Results

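The genes described here make and clear prostaglandin E2 and read it out at the cell surface. They are PTGES, PTGES2, PTGES3, PTGS1, PTGS2, PLA2G4A, PTGR1, PTGR2, HPGD and PTGER4, and they were chosen by gene symbol, 10 of the 58735 genes in the count table. RNA was measured in MIA PaCa-2, an established human pancreatic cancer cell line labelled as wild type, after 24 h in one of 3 conditions with 3 libraries each. The conditions were 0.1% DMSO, 1 µM compound 1, an inhibitor of the kinases TBK1 and IKKε, and 1 µM SCH772984, an inhibitor of the kinases ERK1/2. One cell line was used, and the labels do not say whether the libraries of a condition came from separate cultures, so the p-values cover the spread between these libraries, which may be technical. Library totals ran from 9464432 to 13887859 counts.

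Prostaglandins are lipid signals made from arachidonic acid. Cytosolic phospholipase A2 (PLA2G4A) frees the acid from membranes, the cyclooxygenases (PTGS1, the constitutive form, and PTGS2, the inducible form) convert it to PGH2, and terminal synthases turn PGH2 into the separate prostanoids. PTGES is the inducible, microsomal PGE2 synthase, PTGES2 is a membrane-associated form, and PTGES3 (p23) is a cytosolic form that is also a co-chaperone of HSP90. PGE2 acts on neighbouring cells through receptors that include EP4 (PTGER4), and it is inactivated by the dehydrogenase HPGD and then by the reductases PTGR1 and PTGR2. In epithelial tumours the pathway is known for its part in inflammation and immune evasion.

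Transcripts of the E synthases were abundant in these cells, while those of both cyclooxygenases were at or near 0. Levels between genes are compared in TPM, which divides by the gene length in the table. In DMSO, mean TPM over 3 libraries was 562 ± 21.6 (SD) for PTGES3, 137 ± 2.86 for PTGES2, 97.2 ± 14.4 for PTGES and 27.3 ± 1.88 for PTGR1. The libraries of neighbouring genes in this order did not overlap: PTGES2 ran from 134 to 140 TPM and PTGES from 84.7 to 113 TPM. PTGES3 lay above 98.9% and PTGES above 91.9% of the 22276 genes with a count in DMSO. Next came PTGER4, at 1.07 to 2.98 TPM, and PTGR2, at 0.329 to 0.570 TPM. With compound 1, PTGES (218 ± 21.3 TPM) stood above PTGES2 (137 ± 7.05 TPM), and the rest of the order was that of DMSO. With SCH772984 PTGES (50.6 ± 4.19 TPM) came close to PTGR1 (37.8 ± 3.21 TPM), their libraries not overlapping, an order that turned over without division by length (26.4 against 39.1 CPM), while PTGR2 (1.11 to 1.28 TPM) lay within the range of PTGER4 (0.391 to 1.77 TPM).

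The remaining 4 members had too few counts to be tested. No read of PTGS2 was counted in any of the 9 libraries. PTGS1 had 1 count in the 3 DMSO libraries together, 0 with compound 1 and 2 with SCH772984. A sum of 0 allows up to 3 counts, which over the 3 libraries of a group is 0.107 CPM in DMSO, 0.105 CPM with compound 1 and 0.0772 CPM with SCH772984 (counting error only). These are the upper limits for PTGS2. HPGD had 0 counts in every DMSO and compound 1 library and 3, 2 and 0 counts in the SCH772984 libraries. PLA2G4A had 1 count in each DMSO library, 1 in each compound 1 library, and 3, 4 and 6 counts with SCH772984. PLA2G4A and PTGS2 are neighbours on chromosome 1, with 148525 bases and 1 annotated gene between them, and both were below 1 TPM in every library.

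PTGES (ENSG00000148344; chromosome 9, 129738331 to 129753047, minus strand, hg38) was higher with compound 1 and lower with SCH772984. Its TMM-normalised level was 61.9, 46.7 and 51.0 CPM in the DMSO libraries. The compound 1 libraries had 140, 112 and 106 CPM, and the SCH772984 libraries had 25.1, 24.7 and 29.5 CPM. No library of one condition overlapped those of another. The group means were 53.2 ± 7.88 CPM in DMSO, 119 ± 17.8 CPM with compound 1 and 26.4 ± 2.64 CPM with SCH772984 (SD, n = 3). PTGES was 2.24-fold higher with compound 1 than in DMSO, a log2 fold change of 1.17 ± 0.11 (SE). With SCH772984 it was at 0.496 of its DMSO level, a log2 fold change of -1.01 ± 0.10. Between the inhibitors the log2 fold change was -2.17 ± 0.11, SCH772984 against compound 1. Both inhibitors were compared with the same 3 DMSO libraries. These differences are what set PTGES apart when the genes were chosen, so they are given as a description with no test. Among the 10167 genes with a mean of at least 5 CPM, PTGES had the 4th highest fold change with compound 1. With SCH772984 it had the 1213th lowest of 10531.

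**Figure D1:**
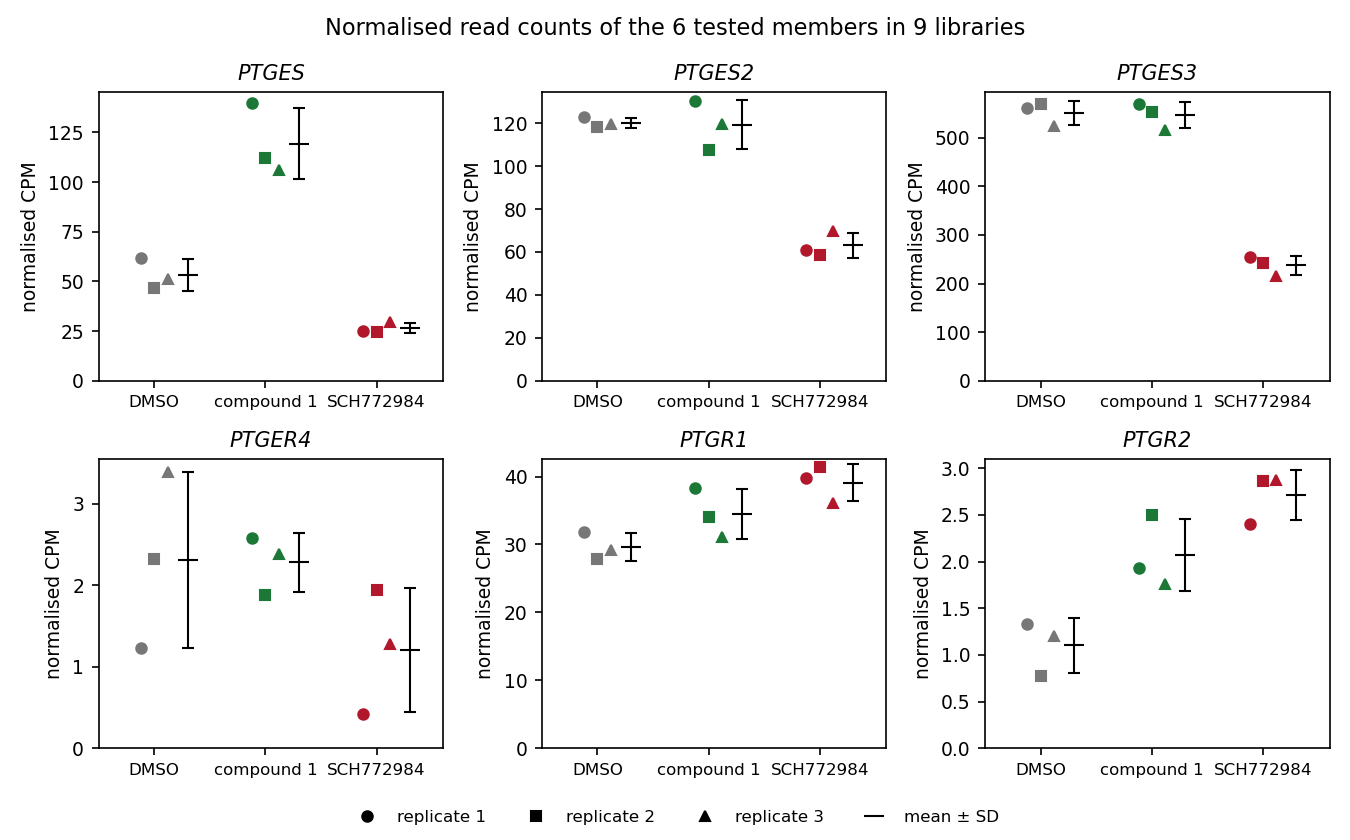
TMM-normalised CPM (linear axes from 0) of the 6 tested members in each of the 9 libraries, with the mean ± SD of 3 libraries beside each condition. PTGES is at 106 to 140 CPM with compound 1, above every DMSO library, and at 24.7 to 29.5 CPM with SCH772984, below every DMSO library, while PTGES2 and PTGES3 are apart from DMSO with SCH772984 alone.

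The other E synthases fell with SCH772984 and gave no call with compound 1. PTGES2 (ENSG00000148334; chromosome 9, 128120693 to 128128462) was at 123, 118 and 120 CPM in DMSO, 131, 108 and 120 CPM with compound 1, and 60.9, 58.6 and 69.8 CPM with SCH772984. All SCH772984 libraries were below all others. It fell by 0.93 ± 0.07 on the log2 scale with SCH772984 (edgeR quasi-likelihood test, adjusted p = 2.47e-15). With compound 1 its log2 fold change was -0.01 ± 0.08 (edgeR adjusted p = 0.974), with a 95% interval of -0.18 to 0.16. The direct comparison of the inhibitors gave -0.92 ± 0.10 (edgeR adjusted p = 6.92e-08).

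PTGES3 (ENSG00000110958; chromosome 12, 56663341 to 56688408) was the most abundant member in every condition. It was at 562, 570 and 523 CPM in DMSO, 569, 553 and 517 CPM with compound 1, and 255, 242 and 216 CPM with SCH772984. DMSO and compound 1 libraries overlapped, and the SCH772984 libraries lay below all of them. It fell by 1.22 ± 0.06 on the log2 scale with SCH772984 (edgeR adjusted p = 1.33e-21). With compound 1 the log2 fold change was -0.01 ± 0.06 (edgeR adjusted p = 0.961; 95% interval -0.14 to 0.12), and between the inhibitors it was -1.20 ± 0.08 (edgeR adjusted p = 1.16e-10). Among the processed pseudogenes of PTGES3, PTGES3P1 had 23 to 52 counts a library against 2871 to 5486 for PTGES3. Reads counted for the pseudogene were thus few beside those of PTGES3. Reads that match both genes and were counted for neither cannot be seen in these counts.

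PTGES made up a larger share of the synthase transcripts with compound 1 than in the other conditions. PTGES TPM divided by PTGES2 TPM, a ratio that no scaling of whole libraries changes, was 0.809, 0.632 and 0.682 in DMSO, 1.71, 1.67 and 1.42 with compound 1, and 0.662, 0.675 and 0.677 with SCH772984. The ratio was above 1 in the compound 1 libraries and below 1 in the other 6. Of the TPM of the 3 synthases together, PTGES made up 12.2% ± 1.55 in DMSO, 23.9% ± 1.77 with compound 1 and 13.3% ± 1.63 with SCH772984 (SD, n = 3). The summed TPM of the 3 genes was 796 ± 27.8 in DMSO, 914 ± 30.1 with compound 1 and 380 ± 21.7 with SCH772984. These values include PTGES and carry no test. Without division by length the means of PTGES and PTGES2 with compound 1 were close (119.3 and 119.4 CPM), PTGES being higher in replicates 1 and 2 and lower in replicate 3, so the size of its lead in TPM rests on the lengths in the table.

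**Figure D2:**
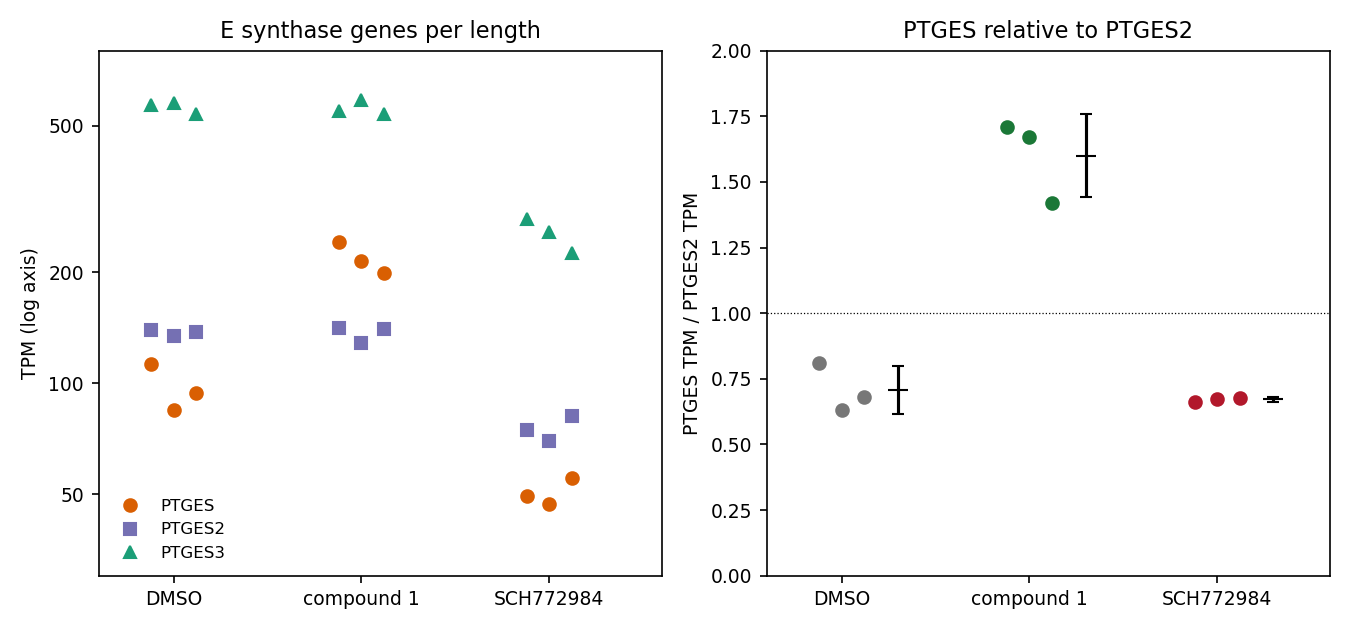
Left, TPM (log axis) of PTGES, PTGES2 and PTGES3 in each library of the 3 conditions. Right, the ratio of PTGES to PTGES2 TPM per library (linear axis from 0) with mean ± SD, 0.708 in DMSO, 1.60 with compound 1 and 0.671 with SCH772984; the dotted line marks a ratio of 1.

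The sequence before the start site is shown for the 3 synthases because PTGES2 and PTGES3 shared with PTGES a lower level with SCH772984 but not its higher level with compound 1. Sequences are from RefSeq (GRCh38.p14), all 10 members matched by symbol, and 9 short motifs were searched on both strands in the 250 bases before each start site. Only bases outside the annotated gene are printed, 5′ to 3′ on the gene's strand, with capitals for matches to the GC box (GGGCGG, bound by SP-family factors) and the EGR motif (GCGNGGGCG). For PTGES the stretch is chr9:129753048-129753292, for PTGES2 chr9:128128463-128128690 and for PTGES3 chr12:56688409-56688534, all on the minus strand. That of PTGES2 overlaps PTGES2-AS1, a non-coding gene on the other strand with 2 to 8 counts a library.
PTGES: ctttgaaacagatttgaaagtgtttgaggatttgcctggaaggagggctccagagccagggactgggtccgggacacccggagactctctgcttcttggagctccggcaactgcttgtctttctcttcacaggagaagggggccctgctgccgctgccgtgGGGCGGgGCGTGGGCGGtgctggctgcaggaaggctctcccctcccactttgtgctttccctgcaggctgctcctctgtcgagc
PTGES2: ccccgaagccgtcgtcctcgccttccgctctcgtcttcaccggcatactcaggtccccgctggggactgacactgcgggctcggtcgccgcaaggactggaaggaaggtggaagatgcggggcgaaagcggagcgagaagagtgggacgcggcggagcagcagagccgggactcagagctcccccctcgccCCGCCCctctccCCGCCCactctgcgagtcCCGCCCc
PTGES3: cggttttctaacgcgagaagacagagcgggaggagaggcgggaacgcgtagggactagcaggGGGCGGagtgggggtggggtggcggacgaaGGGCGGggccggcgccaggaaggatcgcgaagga

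In PTGES, GC boxes begin at -89 and -78 from the start site, and an EGR match that begins at -82 overlaps the second of them. The GC box is common: 42.6% of 35116 promoter windows of this length held one, and so did those of 7 of the 10 members. The EGR motif was in 8.41% of windows and in those of 2 members, PTGES and the second start site of PTGES2. TATAAA, in 10.7% of windows, was found in those of PTGS1 and PTGS2. The other motifs were AP-1 (TGANTCA, 6.57% of windows), ETS (CCGGAAG, 8.52%), NF-kB (GGG, NN and TTTCC in a row, 1.73%), CRE (TGACGTCA, 1.65%), the E-box (CACGTG, 6.34%) and ARE (TGACNNNGC, 10.9%). ARE matches were in windows of 3 members, PTGES2, PTGES3 and PTGS1, and not in that of PTGES. An ETS match was in a window of HPGD and an E-box in one of PTGES2. No member's window held an AP-1, NF-kB or CRE match, which says only that these letters are not there. EGR1, a factor that binds the EGR motif, was looked at after its values were seen. It had 193, 130 and 157 counts in DMSO, 187, 195 and 216 with compound 1, and 17, 10 and 34 with SCH772984. EGR1 fell by 3.45 ± 0.22 on the log2 scale with SCH772984 (edgeR adjusted p = 8.17e-18), and its log2 fold change with compound 1 was 0.30 ± 0.13 (edgeR adjusted p = 0.307). Its part in the level of PTGES was not tested.

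**Figure D3:**
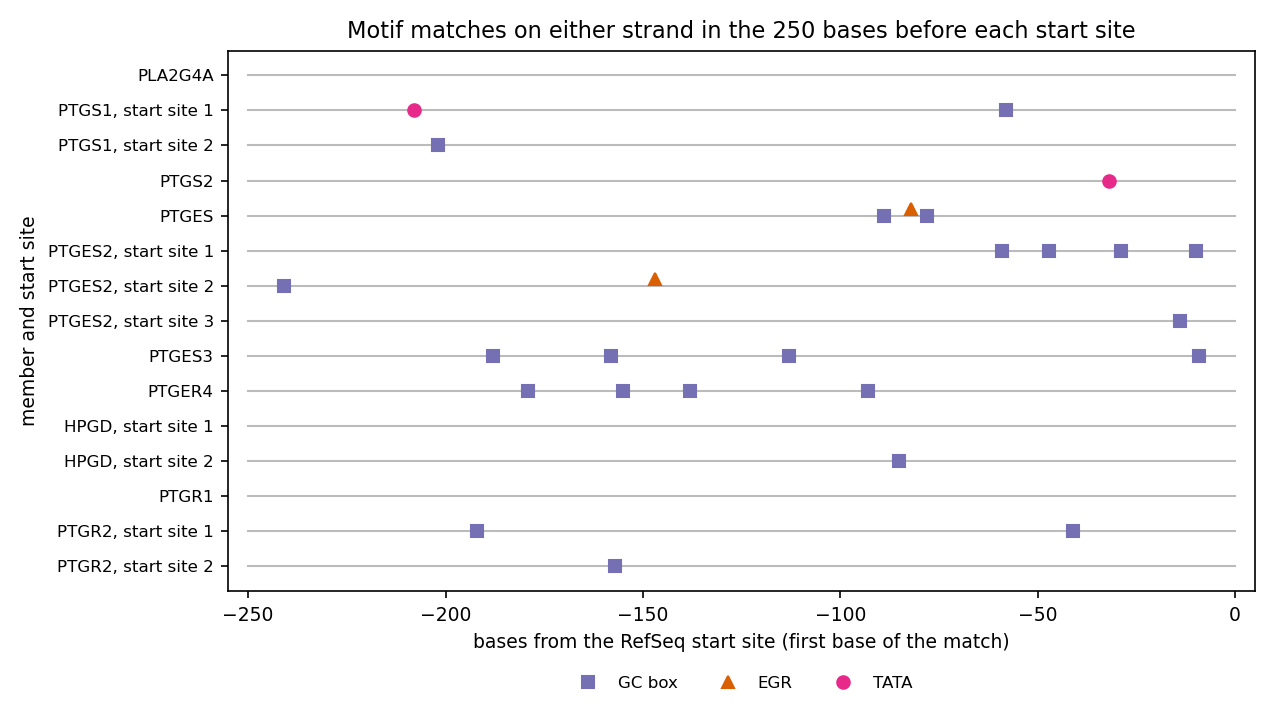
First bases of GC box, EGR and TATA matches in the 250 bases before each of the 15 RefSeq start sites of the 10 members. The x axis gives bases from the start site, and start sites are numbered along the direction of transcription. ARE, ETS and E-box matches are not drawn. PTGES holds an EGR match at -82 between GC boxes at -89 and -78, and 11 of the 15 windows hold a GC box.

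The receptor PTGER4 and the reductase PTGR2 had few counts, PTGR1 was of middling abundance, and each was called with SCH772984. PTGER4 (ENSG00000171522; chromosome 5, 40679498 to 40693735) had 12, 21 and 31 counts in DMSO, 24, 18 and 23 with compound 1, and 5, 23 and 19 with SCH772984. The counts of the 3 conditions overlapped. Its log2 fold change with SCH772984 was -0.92 ± 0.41 (edgeR adjusted p = 0.0418), and the call was lost in 4 of the 6 fits that left out a library. With compound 1 it was -0.01 ± 0.35 (edgeR adjusted p = 0.994). The gene lies on the opposite strand within TTC33, which had 149 to 300 counts a library, and the strand setting of the counting is not given in the sources used here.

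PTGR1 (ENSG00000106853; chromosome 9, 111549722 to 111599893), the reductase that also clears leukotriene B4, was at 31.8, 27.9 and 29.2 CPM in DMSO. It was at 38.4, 34.0 and 31.1 CPM with compound 1 and at 39.7, 41.4 and 36.1 CPM with SCH772984. The SCH772984 libraries were all above DMSO, and the compound 1 libraries overlapped both. PTGR1 rose by 0.39 ± 0.09 on the log2 scale with SCH772984 (edgeR adjusted p = 0.000302). With compound 1 the log2 fold change was 0.22 ± 0.11 (edgeR adjusted p = 0.346), and the inhibitors differed by 0.18 ± 0.11 (edgeR adjusted p = 0.154; 95% interval -0.05 to 0.41). ZNF483, which overlaps it on the other strand, had 4 to 19 counts a library.

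PTGR2 (ENSG00000140043; chromosome 14, 73851844 to 73886827) had 13, 7 and 11 counts in DMSO, 18, 24 and 17 with compound 1, and 29, 34 and 43 with SCH772984. Every library of either inhibitor was above every DMSO library. PTGR2 rose by 1.29 ± 0.35 on the log2 scale with SCH772984 (edgeR adjusted p = 0.00111). The log2 fold change with compound 1 was 0.90 ± 0.35, which did not pass (edgeR adjusted p = 0.238; unadjusted p = 0.0222). Between the inhibitors it was 0.40 ± 0.30 (edgeR adjusted p = 0.246; 95% interval -0.22 to 1.01). ZNF410 overlaps its end on the same strand with 3 to 16 counts a library, so single reads may have been split between the pair.

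Over the whole set, 6 members were tested in each comparison. With SCH772984 against DMSO all 6 were called, 2 higher and 4 lower (PTGES among the latter by its choice), in a comparison where 72.8% of 13834 genes were called (37.2% higher, 35.5% lower). With library totals as the only scaling, the genes called were 6242 higher and 3911 lower rather than 5150 and 4916. That scaling shifted the median over all genes upward by 0.175 on the log2 scale, and the members kept their directions (PTGES -0.84, PTGES2 -0.76, PTGES3 -1.05), but PTGER4 lost its call (-0.75, edgeR adjusted p = 0.104), which left 3 members lower. With compound 1 the call rate was 0.864% of 12849 genes (0.490% higher, 0.374% lower). PTGES alone of the members was among them, as its choice fixed; of the other 5, 0 passed the adjusted edgeR test and 1, PTGR2, had an unadjusted p under 0.05, a rule that called 7.35% of genes higher. Scaled by library totals, the genes called with compound 1 were 85 higher and 25 lower rather than 63 and 48. In the direct comparison 66.3% of 13863 genes were called (33.7% higher, 32.6% lower), and PTGES2 and PTGES3 were called lower with SCH772984, as was PTGES, by its choice. Scaled by library totals, the genes called there were 5526 higher and 3736 lower rather than 4674 and 4519, and 1 member, PTGR1, was then higher. Read against these rates, the members' count with SCH772984 says little about the set. In these bulk libraries, fewer cells that express a gene and less of its RNA per cell cannot be told apart.

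**Figure D4:**
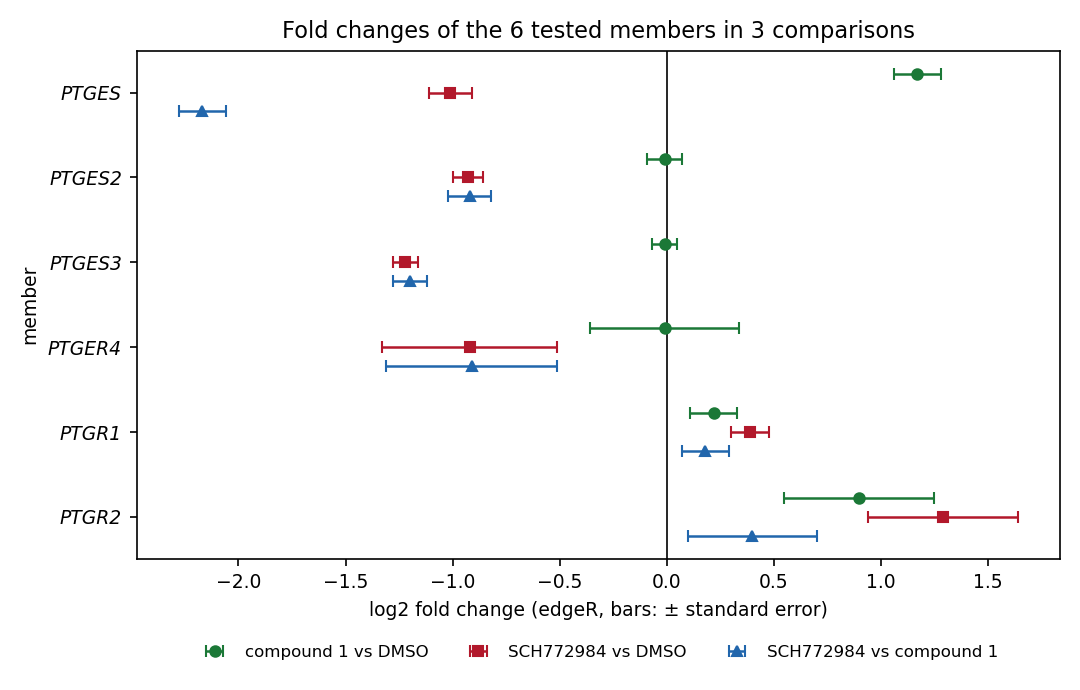
Log2 fold change (x axis, edgeR) of the 6 tested members in the 3 comparisons, with bars for ± the standard error. PTGES lies at 1.17 with compound 1 and -1.01 with SCH772984, PTGES2 and PTGES3 lie at -0.01 with compound 1, and PTGER4 and PTGR2 have the widest bars.

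Compound 1 replicate 1 stood apart from its group, with a chi-square per degree of freedom of 10.1 and 7.61 to replicates 2 and 3, against 2.66 between those. Without it, the genes called with compound 1 were 453 higher and 798 lower. PTGES was highest in that library, and without it the log2 fold change of PTGES was 1.04 with compound 1 and -2.04 between the inhibitors; the other 5 tested members still gave no call with compound 1. As a check of SCH772984, all 13 tested genes of a list of 14 ERK output genes fell with it and 0 were called with compound 1 by edgeR (4 at an unadjusted p under 0.05). SPRY4, a feedback inhibitor of the pathway, went from 2303, 2108 and 2064 counts in DMSO to 19, 20 and 41. DUSP6, the ERK phosphatase, had 40, 25 and 51 counts in DMSO and 0, 1 and 0 with SCH772984. Of the markers of the labelled cell type, KRT8, KRT18 and KRT19 were abundant, EPCAM was at 0 in all libraries, and KRT7 and CDH1 had 0 to 5 counts a library. The 6 epithelial markers summed to 3460 to 3730 CPM in DMSO, 2970 to 3740 CPM with compound 1 and 1130 to 1280 CPM with SCH772984. That fall was in KRT8 (-1.69 on the log2 scale) and KRT18 (-2.40), while KRT19 was at 252 ± 25.9 CPM in DMSO and 272 ± 19.2 CPM with SCH772984. The 6 fibroblast markers summed to 457 to 506, 469 to 531 and 991 to 1120 CPM, nearly all of it COL1A2. Leukocyte markers summed to at most 3.07 CPM, endothelial markers to at most 6.77 CPM and erythroid markers to at most 1.07 CPM, with PTPRC, CD3E and HBB at 0. The part of these shifts in the members' values was not tested.

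Beyond the members, 73 genes of arachidonate release, re-esterification, prostanoid synthesis, breakdown, receptors, transport and the leukotriene branch, together with the MAPEG relatives of PTGES, were followed. Of these, 35 could be tested with SCH772984, and 20 rose, 9 fell and 6 did not pass. Their median log2 fold change was 0.40, beside 0.03 over all genes tested. Without PTGDS and AKR1C3, which passed the count filter only where SCH772984 libraries were in the fit, 18 of 33 were higher and 9 lower, with a median of 0.34, beside call rates of 37.2% higher and 35.5% lower over all genes. With scaling by library totals the counts were 23 higher and 5 lower. With compound 1, 33 were tested, and 1 rose, 1 fell and 31 did not pass, with a median of 0.01 beside 0.00 over all genes. In the direct comparison 19 of 35 were higher with SCH772984 and 5 lower, beside 33.7% and 32.6% of all genes tested. PTGDS and AKR1C3 were among those 19 and again passed the filter through the SCH772984 libraries. In 13 of the 73 genes no read was counted in any library.

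**Figure D5:**
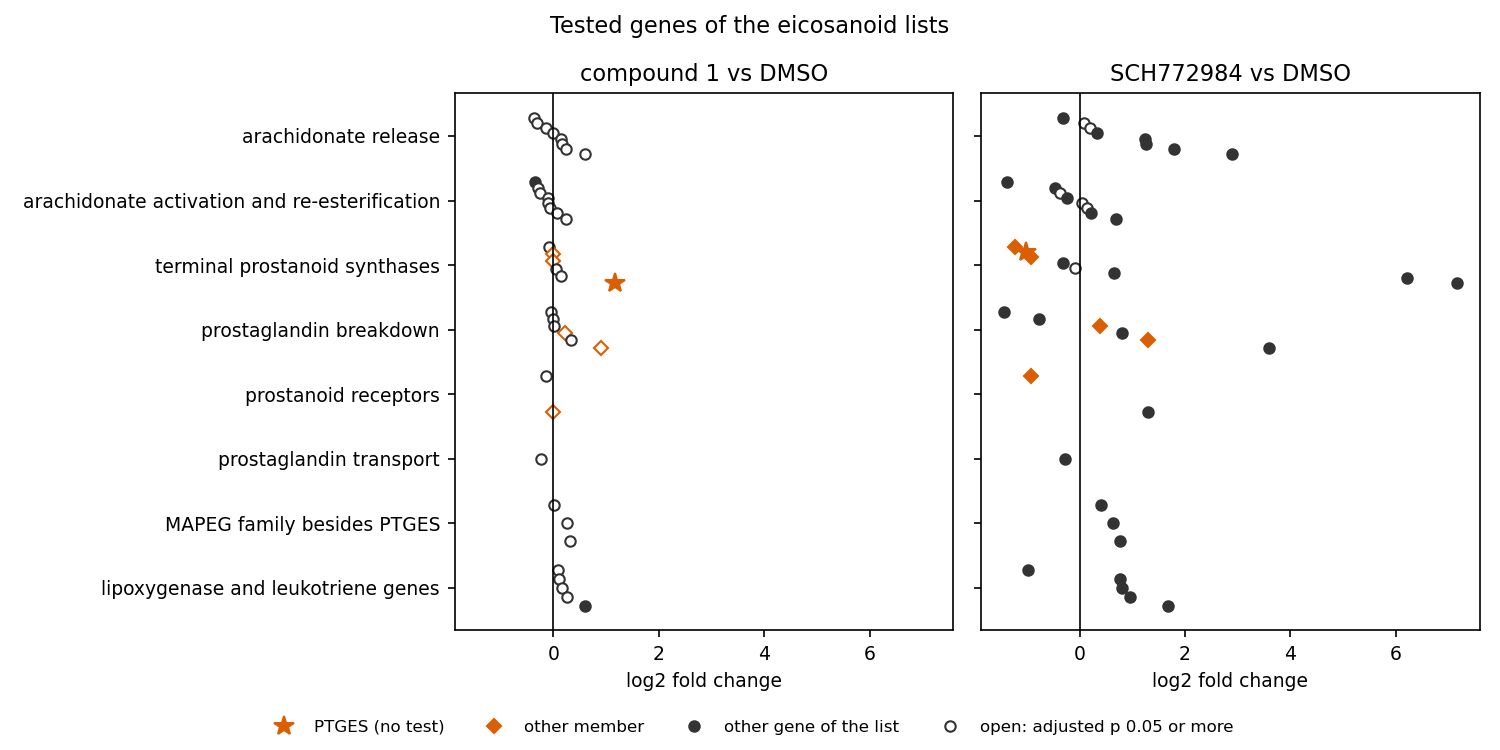
Log2 fold change (x axis) of every tested gene of the 8 eicosanoid lists (y axis, spread within a list to keep points apart) with compound 1 and with SCH772984, against DMSO. Filled symbols passed an adjusted p under 0.05; the PTGES star carries no test, and the rightmost point with SCH772984 is PTGDS, whose fitted value rests on 1 count in DMSO.

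Among the genes of arachidonate release, phospholipases other than PLA2G4A passed the test. Of 8 tested genes in the list, 5 rose and 1 fell with SCH772984, with a median log2 fold change of 0.79. Over all genes tested, 37.2% were called higher and 35.5% lower, with a median of 0.03. PLA2G4C, a calcium-independent relative of PLA2G4A, rose by 2.90 ± 0.18 on the log2 scale (edgeR adjusted p = 3.75e-19), from 32, 25 and 19 counts to 243, 249 and 302. PLA2G6, another calcium-independent phospholipase, rose by 1.80 ± 0.23 and PLA2G16 by 1.25 ± 0.22. DAGLA, a diacylglycerol lipase, rose by 1.26 ± 0.14, while DAGLB, which overlaps the abundant KDELR2, fell by 0.32 ± 0.08. With compound 1, 0 of the 8 were called by edgeR and 1 had an unadjusted p under 0.05. Opposite to PLA2G6 lies MAFF, with more counts than PLA2G6 itself.

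Re-esterification, which returns arachidonate to phospholipids, gave 2 higher and 3 lower of 8 tested with SCH772984. The shares over all genes were 37.2% higher and 35.5% lower. MBOAT2 rose by 0.70 ± 0.08 and LPCAT3, which overlaps EMG1 and C1S on the other strand (7212 and 2541 counts against its 3686), by 0.21 ± 0.09. ACSL4, which activates arachidonate, fell by 0.46 ± 0.09, and MBOAT7 fell by 0.24 ± 0.06. LPCAT1 was called in both comparisons with the shared DMSO libraries. It had 2900, 2338 and 2525 counts in DMSO, 2044, 2110 and 2074 with compound 1, and 1250, 1337 and 1560 with SCH772984. LPCAT1 fell by 0.34 ± 0.07 on the log2 scale with compound 1 (edgeR adjusted p = 0.0365) and by 1.38 ± 0.07 with SCH772984 (edgeR adjusted p = 7.93e-23). The call with compound 1 was lost in 5 of the 6 fits that left out a library, and kept without compound 1 replicate 1.

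Among terminal synthases of the other prostanoids, 5 were tested with SCH772984, of which 3 rose, 1 fell and 1 did not pass. Across all genes, 37.2% were called higher and 35.5% lower. Of the 3 that rose, PTGDS and AKR1C3 passed the count filter through the SCH772984 libraries alone, so they could enter the test only by being higher there. PTGDS, the lipocalin-type PGD2 synthase, had 0, 0 and 1 counts in DMSO, 0 in each compound 1 library, and 64, 73 and 127 with SCH772984. Against a floor of 3 counts in the compound 1 group, it was at least 64.6-fold higher with SCH772984. AKR1C3, which reduces PGD2 and PGH2 to F-type prostaglandins, had 2, 4 and 3 counts in DMSO, 5, 10 and 2 with compound 1, and 375, 269 and 304 with SCH772984, a fitted log2 fold change of 6.21 ± 0.28. AKR1B1, another PGF synthase, rose by 0.66 ± 0.08, and PRXL2B, the peroxiredoxin-like PGF synthase, fell by 0.31 ± 0.09. Of the 3 tested with compound 1, 0 were called by edgeR and 0 had an unadjusted p under 0.05.

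Genes listed here under breakdown, besides the members, went both ways with SCH772984, with 2 of 4 higher and 2 lower. All genes tested gave 37.2% higher and 35.5% lower. That list was written by hand, and AKR1C1 and AKR1C2 in it are close relatives of the PGF synthase AKR1C3. AKR1C2 rose by 3.60 ± 0.14 and AKR1C1 by 0.80 ± 0.06 on the log2 scale, while the carbonyl reductase CBR3 fell by 1.44 ± 0.29 and ZADH2, a prostaglandin reductase, by 0.76 ± 0.08. The AKR1C genes are close copies of each other, so reads could be split among them, and their separate values are uncertain. With compound 1, 0 of the 4 were called by edgeR and 0 had an unadjusted p under 0.05. Of the 8 other prostanoid receptors the thromboxane receptor TBXA2R was the 1 with enough counts, and it rose by 1.29 ± 0.16 with SCH772984. PTGER1 had 1 to 18 counts a library, PTGER2 had 0 to 4, and PTGER3, PTGDR and PTGFR had 0 in all 9. ABCC4, which exports prostaglandins, fell by 0.28 ± 0.08 with SCH772984.

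PTGES belongs by sequence to the MAPEG family of membrane glutathione enzymes, and of its 5 listed relatives 3 had enough counts to be tested. MGST3 rose by 0.76 ± 0.08, MGST2 by 0.64 ± 0.18 and MGST1 by 0.40 ± 0.07 on the log2 scale with SCH772984, where 37.2% of all genes were called higher. With compound 1 their log2 fold changes were 0.27 ± 0.11, 0.01 ± 0.19 and 0.32 ± 0.08, and 0 of 3 were called by edgeR (2 at an unadjusted p under 0.05). In the leukotriene branch 4 of 5 tested genes rose with SCH772984 and 1 fell, beside 37.2% higher and 35.5% lower over all genes. ALOX12 rose by 1.68 ± 0.23, LTA4H, which makes leukotriene B4, by 0.77 ± 0.08 and LTB4R2 by 0.81 ± 0.22, while ALOXE3 fell by 0.97 ± 0.34. LTB4R2, with 450 counts over all libraries, overlaps NOP9 on the same strand, which had 2789. ALOX12 has an antisense gene, ALOX12-AS1, with 336 counts over all libraries against 482 for ALOX12. LTB4R, the high-affinity leukotriene B4 receptor, was the list gene that rose with compound 1. It had 184, 163 and 181 counts in DMSO, 282, 286 and 252 with compound 1, and 360, 447 and 631 with SCH772984. LTB4R rose by 0.61 ± 0.11 with compound 1 (edgeR adjusted p = 0.0247) and by 0.96 ± 0.11 with SCH772984 (edgeR adjusted p = 6.10e-10). It overlaps LTB4R2 on the same strand, and its call with compound 1 was lost in 4 of the 6 fits that left out a library, each DMSO library among them.

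PTGES3 was also set beside the HSP90 machinery, of which it is a part. Of 12 tested genes, 10 fell and 2 rose with SCH772984, with a median log2 fold change of -0.87, beside 0.03 over all genes tested, of which 35.5% were called lower and 37.2% higher. HSP90AA1 fell by 1.02 ± 0.07, AHSA1 by 1.17 ± 0.07, FKBP4 by 1.15 ± 0.07 and CHORDC1 by 1.10 ± 0.08, the largest falls of the list. The other called falls ran from 0.40 ± 0.08 for FKBP5 to 1.00 ± 0.06 for STIP1. UNC45A rose by 0.52 ± 0.07. AHSA2P, an expressed pseudogene that overlaps USP34 on the other strand, rose by 1.11 ± 0.19 and was the 1 gene of the list called with compound 1 (0.68 ± 0.14, edgeR adjusted p = 0.0365), a call lost in 5 of the 6 fits that left out a library.

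The genes whose profile over the 9 libraries was nearest to that of PTGES were low in abundance. Likeness was the root mean square difference of log2 CPM, centred on DMSO, over 12710 genes tested in all 3 comparisons, and its median over genes was 0.930. The nearest were AL353150.1 at 0.333, AL161452.1 at 0.369, S100A5 at 0.371, ASAH2B at 0.374 and RAB38 at 0.374. AL353150.1, a non-coding gene on chromosome 9, had a mean of 6.79 CPM in DMSO, 12.2 CPM with compound 1 and 3.42 CPM with SCH772984. S100A5, a calcium-binding protein, had 3.16, 6.11 and 2.21 CPM in the same order, and RAB38, a small GTPase of lysosome-related organelles, had 5.22, 7.99 and 2.48 CPM. The same 5 genes were nearest with a smaller prior count, and the order is a description without a test.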

How the data were processed

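MIA PaCa-2 RNA was sequenced in 9 libraries. The values used are whole-number read counts per gene as the authors deposited them, without normalization, in 1 table with gene coordinates. Per the submitters' processing notes, HISAT2 2.0.5, featureCounts 1.5.0-p3 and hg38 were used; the strand setting is not given in the sources used here. Coordinates of all 58735 genes equalled those of GENCODE 29.

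Libraries were grouped by their labels. Each comparison was a fit of its own 6 libraries in edgeR 4.0.16 (R 4.3.3; robust quasi-likelihood test, TMM factors, filterByExpr with a minimum count of 10 and a minimum total of 15). A gene was called at a Benjamini-Hochberg adjusted p under 0.05 over all genes tested; the study's threshold, an unadjusted p, is an alternative. CPM (TMM-scaled) and TPM (from the length in the table) were computed here. The scripts were tested on simulated data. Total counts of 9464432 to 13887859 per library set the precision, and standard errors cover counting error and the spread between libraries.

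The members and gene lists were chosen with earlier results of these data known, so no list was tested. Named genes are the members, up to 4 called non-members of each list with the largest fold change per direction and inhibitor and no overlap with DMSO, the 5 nearest profiles, and genes overlapping a member. Named outside this rule are EGR1, the cell type markers, FKBP5 and STIP1, receptors with few counts, PTGES3P1, PTGES2-AS1 and genes overlapping a named non-member. Alternatives were other scalings, filters, thresholds, a joint fit, a replicate block, protein-coding genes, DESeq2 1.42.0, and leaving out each library.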

Additional observations from a re-analysis of the deposited data

How the results depend on the processing

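With SCH772984, PTGES, PTGES2 and PTGES3 kept their direction in every alternative fit, and PTGES2 and PTGES3 their call, except PTGES2 when a 2-fold change was also required; their ranges without 1 library were -1.12 to -0.91, -1.02 to -0.89 and -1.29 to -1.16. PTGES with compound 1 ran from 1.04 to 1.29. The log2 fold changes near 0 with compound 1 changed sign without being called: by library size alone PTGES2, PTGES3 and PTGER4 were each at 0.02, PTGER4 was at 0.02 with the replicate block, and without 1 library they ran from -0.08 to 0.05, -0.05 to 0.03 and -0.32 to 0.37. PTGER4 with SCH772984 was called in 2 of 6 fits without 1 library (-1.39 to -0.55), and its call was lost without DMSO replicate 2 or 3 or SCH772984 replicate 1 or 3, and also by library size alone (adjusted p = 0.104), in the joint fit of 9 libraries (0.0587) and with DESeq2 (0.0924). The counts of members called with SCH772984 were 1 higher with at least 10 counts in every library, and 1 higher and 2 lower with a 2-fold change. At an unadjusted p, 2 members were higher with compound 1. In the direct comparison 1 member was higher by library size alone, 1 with at least 10 counts in every library, and 0 to 1 without 1 library (1 without compound 1 replicate 1). Of the other eicosanoid genes, requiring a 2-fold change left 9 higher and 2 lower with SCH772984, 0 and 0 with compound 1, and 8 higher and 3 lower in the direct comparison; library size alone left 5 lower with SCH772984. With compound 1, 2 were higher by library size alone, with no filter, in the joint fit of 9 libraries, with the replicate block and with DESeq2, 2 were lower with no filter and with the block, and 5 were higher and 3 lower at an unadjusted p. Without 1 library those counts ran from 0 to 3 higher and 0 to 2 lower, with 0 of each without any single DMSO library and 3 and 2 without compound 1 replicate 1. The genes called with compound 1, 63 higher and 48 lower, became 189 and 228 with no filter, 193 and 219 with the block, 117 and 122 with DESeq2, 91 and 97 in the joint fit, 38 and 32 among protein-coding genes, and from 5 and 3 (without DMSO replicate 2) to 453 and 798 (without compound 1 replicate 1). Same-numbered libraries did not deviate together (correlations -0.0787 to 0.107), so the block was not taken as a pairing; it changed no member's call. The causes were not tested. Members with few counts limit what could be seen: 4 of 10 could not be tested.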
